A study of Homo sapiens with 8 samples.

Results

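The splicing factor genes described here are the members of 6 subfamilies named by their symbols: SRSF, HNRNP, SNRP, SF3A and SF3B (together SF3), U2AF and PRPF. A gene was taken where a probe set carried its symbol alone and the symbol began with those letters followed by a letter or number, and 1 pseudogene was left out. This gave 70 of the 18244 genes on the array, of which 23 were HNRNP, 12 SRSF, 12 SNRP, 11 PRPF, 9 SF3 and 3 U2AF genes. Genes spelled SNRNP fall outside those letters and were counted among other splicing genes. The members were read by 228 probe sets, 1 to 11 for a gene.

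The cells were SK-MEL-5, an established human melanoma line, and expression was measured on 8 Affymetrix arrays in 4 groups of 2. Control cells received 25 uM DMSO, and treated cells received 250 nM THZ1 in 25 uM DMSO for 6 h. In the siRNA arm, cells were transfected with a non-targeting siRNA (siCtrl) or with siRNA against MITF (siMITF), and the time of harvest is not given in the sources used here. THZ1 is a covalent inhibitor of CDK7, a kinase of the transcription machinery that acts on RNA polymerase II, and MITF is the transcription factor that sets the melanocyte lineage. All arrays come from 1 cell line. Nothing in the labels ties the paired arrays of a group to separate cultures, so each p-value reflects the spread of these arrays alone, which may be technical.

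Introns are removed from pre-mRNA by the spliceosome, which is built from small nuclear RNAs and proteins (snRNPs). SNRP genes encode the Sm ring shared by most of these particles and proteins specific to U1 or U2, SF3A and SF3B proteins belong to the U2 particle that holds the branch site, and U2AF proteins bind the 3′ splice site. PRPF proteins act in the U4/U6.U5 particle and in the catalytic stages. SR proteins (SRSF) bind exonic sequences and mostly favour exon inclusion, and hnRNP proteins coat nascent RNA and often act against it. Many SRSF and HNRNP genes adjust their own RNA through alternative exons that send the transcript to decay, so probe sets of 1 gene can read different transcripts.

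Median signals over all probe sets were 61.3 and 76.1 with DMSO, 51.1 and 67.6 with THZ1, 51.1 and 59.3 with siCtrl, and 40.1 and 32.5 with siMITF. The deposited values were normalized to cell number, and each comparison is given on that scale (per cell) and after each array was centred on its median gene (relative to the median gene). The median tested gene changed by -0.16 (log2, per cell) with THZ1 and by -0.63 with siMITF. ERCC spike-in RNA, added in proportion to cell number, had a median signal of 48.0 to 53.9 on the drug arrays and 27.6 to 30.7 on the siRNA arrays, so signals were compared only within an arm. In bulk RNA from a treated culture, fewer cells of a state and less RNA per cell cannot be told apart. MITF gave 3436 and 3936 with siCtrl and 1747 and 1168 with siMITF, a relative change of -0.72 (log2, adjusted p = 0.000325, limma), and CDK7 fell by 0.41 with THZ1 (adjusted p = 0.00148). In the drug arm MITF gave 4670 and 5669 with DMSO and 3311 and 4178 with THZ1. That relative change was -0.27 (adjusted p = 0.0497, limma), and the call was not kept with each gene's own variance (adjusted p = 0.153). Of 8 melanocyte lineage markers listed, 7 were on the array and all 7 passed the signal cut, with a summed signal of 41513 to 44890 with DMSO, 36525 to 45081 with THZ1, 27206 to 31273 with siCtrl and 17391 to 21576 with siMITF. Within that sum, SOX10 changed by -1.16 with THZ1 relative to the median gene, MITF by -0.27 and PMEL by -0.02. The other markers changed by 0.18 to 0.30. Of the keratinocyte, fibroblast and leukocyte markers on the array, 1 of 5, 3 of 5 and 1 of 5 passed it. Summed fibroblast marker signal was 2348 to 2820 with DMSO, 2638 to 3416 with THZ1, 1527 to 1855 with siCtrl and 730.2 to 961 with siMITF. LUM gave most of this sum, at 2067 and 2476 with DMSO and 810 and 613 with siMITF, and COL1A1 and COL1A2 did not pass the cut. Relative to the median gene, LUM changed by -0.43 with siMITF, DCN by 0.20 and PDGFRA by 0.39. The part of these signals in the results was not tested.

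Of the 70 splicing factor genes, 66 passed the cut on low signals, a signal of 39.2, and were tested. HNRNPCL1, HNRNPCL2, SRSF12 and SNRPN did not pass through a probe set of their own. SNRPN encodes a tissue-restricted Sm protein and shares its bright probe sets with the SNURF reading frame. Those 3 shared probe sets differed by 0.30 to 0.37 (log2, relative to the median gene) between THZ1 and DMSO and by -0.21 to -0.01 between siMITF and siCtrl, and were not tested.

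The promoters of HNRNPDL, HNRNPD, SRSF3 and SRSF6 are shown first, because these 4 genes, of the 5 called lower per cell with THZ1, were also called lower relative to the median gene with both THZ1 and siMITF. They were chosen after their values were seen. Each line is the 250 bases before the RefSeq start site on build GRCh38.p14, read 5′ to 3′ on the gene's own strand. HNRNPDL lies at chr4:82430226-82430475 (minus strand), HNRNPD at chr4:82373992-82374241 (minus strand), SRSF3 at chr6:36594112-36594361 (plus strand) and SRSF6 at chr20:43457646-43457895 (plus strand). Capitals mark matches, on either strand, to the CCAAT box, to CACGTG (an E-box that MITF can bind), CCGGAAGT (an ETS site), TATAAA (the letters of the TATA box) or GGGCGG (those of the GC box).
HNRNPDL: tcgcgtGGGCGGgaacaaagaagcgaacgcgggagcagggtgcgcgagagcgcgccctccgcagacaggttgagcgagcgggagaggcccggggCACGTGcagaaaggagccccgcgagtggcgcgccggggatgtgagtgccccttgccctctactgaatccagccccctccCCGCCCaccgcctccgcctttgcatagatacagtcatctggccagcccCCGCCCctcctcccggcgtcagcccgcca
HNRNPD: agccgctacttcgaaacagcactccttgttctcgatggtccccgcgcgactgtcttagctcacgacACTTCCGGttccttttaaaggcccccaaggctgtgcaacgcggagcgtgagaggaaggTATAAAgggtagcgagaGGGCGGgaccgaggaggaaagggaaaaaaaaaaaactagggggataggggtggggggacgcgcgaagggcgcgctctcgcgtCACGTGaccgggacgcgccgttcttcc
SRSF3: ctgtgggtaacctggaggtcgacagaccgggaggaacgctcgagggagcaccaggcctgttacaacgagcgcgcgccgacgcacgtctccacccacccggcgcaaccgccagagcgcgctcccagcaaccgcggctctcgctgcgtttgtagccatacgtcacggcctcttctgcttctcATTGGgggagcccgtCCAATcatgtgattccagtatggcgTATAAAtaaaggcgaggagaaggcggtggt
SRSF6: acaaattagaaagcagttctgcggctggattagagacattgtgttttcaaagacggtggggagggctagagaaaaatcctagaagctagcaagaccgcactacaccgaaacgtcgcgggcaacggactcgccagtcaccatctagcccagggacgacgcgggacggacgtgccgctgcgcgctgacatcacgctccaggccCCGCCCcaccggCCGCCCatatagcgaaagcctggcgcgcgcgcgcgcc

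HNRNPDL and HNRNPD, neighbouring paralogues on chromosome 4, each held 1 CACGTG in this window. SRSF3 held 2 CCAAT matches and 1 TATAAA, and SRSF6 held 2 GC boxes and none of the other 4 motifs. An entry was found for 64 of the 70 members (not for HNRNPA1, PRPF3, PRPF39, SF3B3, SNRPD1 and SRSF2), and the first entry of a gene was used. CACGTG was found for 7 of these 64 (10.9%), against 7.84% of 15843 protein-coding promoters of the same length. The 7 were HNRNPA3, HNRNPD, HNRNPDL, HNRNPH2, HNRNPH3, HNRNPM and SF3B1. CCGGAAGT was found for 14 members (21.9%) against 5.09% of all, CCAAT for 28 (43.8%) against 34.5%, GGGCGG for 37 (57.8%) against 56.0% and TATAAA for 6 (9.38%) against 9.23%. The ETS letters were therefore the motif whose share stood farthest from that of all promoters, as a description without a test. Of the 15 members lower with THZ1, 14 had an entry, with CCAAT in 6 and CACGTG in 2. A match is not a measured binding site, and the median GC content was 61.6% for members and 62.4% for all.

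THZ1 lowered a small set of splicing factor RNAs, led by HNRNPDL, PRPF38B and SRSF3, and left most of the 66 near the median gene. Per cell, 5 members fell, which are HNRNPDL, PRPF38B, SRSF3, HNRNPD and SRSF6, where 10% of all 11947 tested genes were called lower. On that scale 0 members were called higher by limma (1 at an unadjusted p under 0.05), where 0.0753% of all genes were. Relative to the median gene, 15 members fell and 10 rose, beside 21.1% and 17.7% of all genes, and the median member stood at 0.03 (log2) beside 0.04 for all tested genes. The members' 22.7% lower and 15.2% higher are thus close to the shares over all genes, but not to those of equally bright genes. At a signal of 515 or more, 25% of 44 members were lower and 20.5% higher, beside 12.1% and 40.5% of all genes there. With quantile normalization in place of centring, 19 were lower and 2 higher (2574 and 1683 of all genes). All 15 falls were called again there, and 2 of the 10 rises were (HNRNPA3 and SNRPE).

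The per-cell calls depended on single arrays and on the variance model. Fewer members were lower per cell without DMSO replicate 2 or THZ1 replicate 1, and more were lower without THZ1 replicate 2. The share over all genes moved the same way in each setting. The per-cell fit shared 1 standard error of 0.25 (log2) across genes. With each gene's own variance 0 members were called (6 lower at an unadjusted p under 0.05), and the lowest adjusted p over all tested genes was 0.268. On the centred scale, fewer members were lower, and fewer higher, with any 1 drug-arm array left out. The share of all genes called lower dropped without DMSO replicate 1, where the fewest members were lower. The share called higher dropped without DMSO replicate 1, THZ1 replicate 1 or THZ1 replicate 2.

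**Figure D1:**
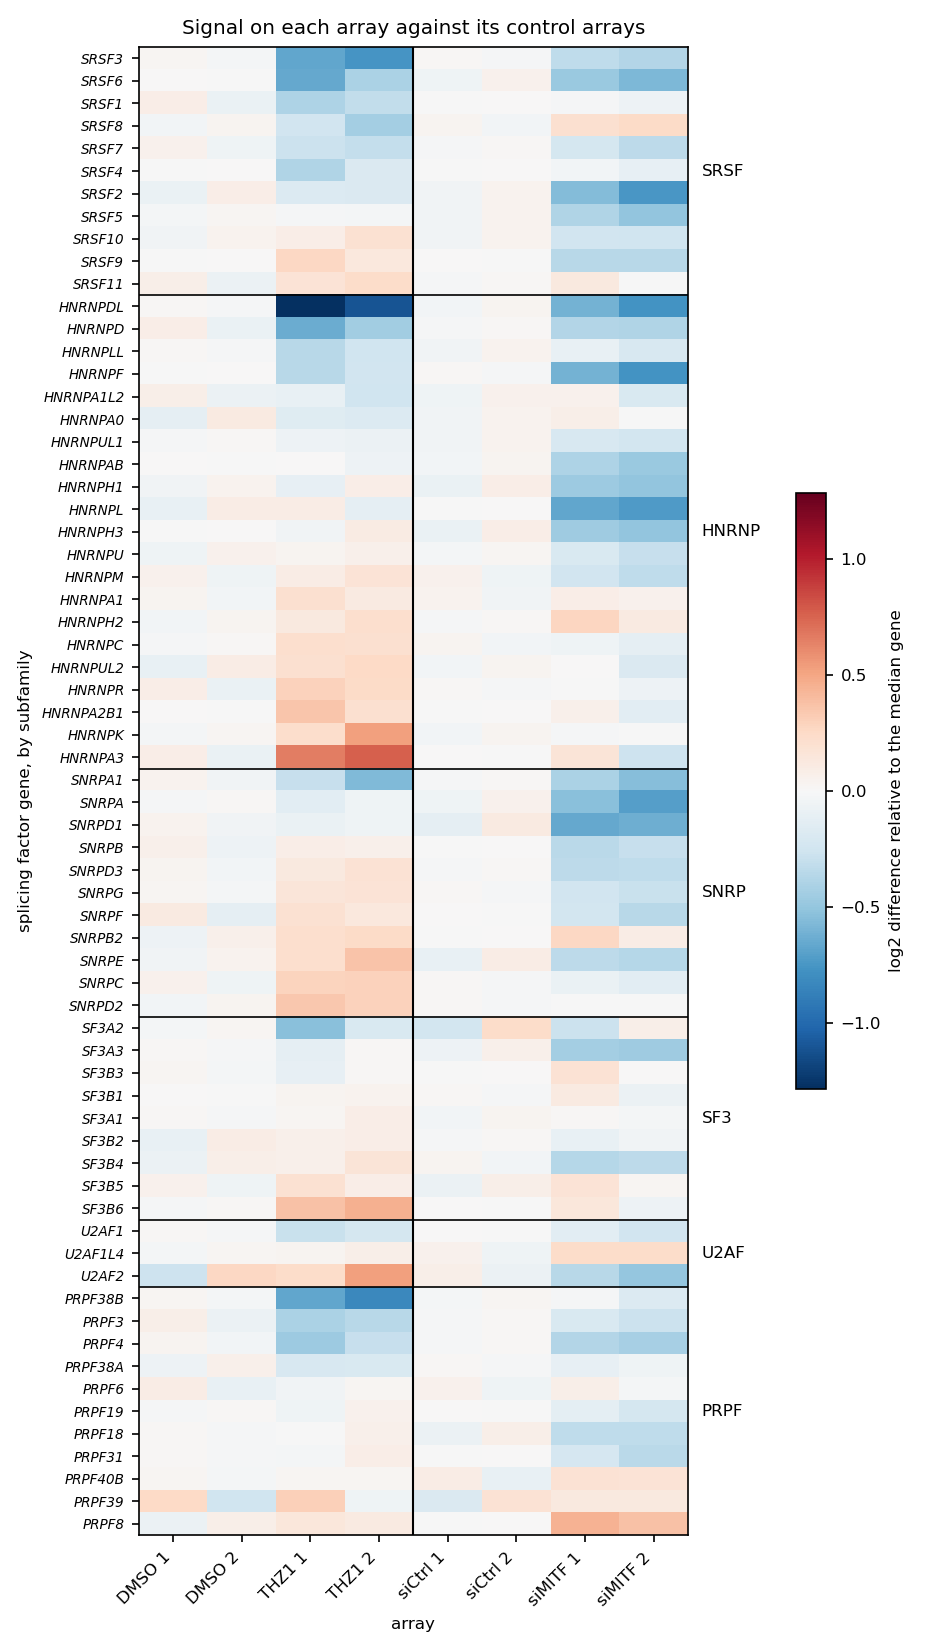
Each row is 1 of the 66 tested splicing factor genes and each column 1 array, and colour is the log2 difference from the mean of the 2 control arrays of its arm (DMSO or siCtrl), relative to the median gene. Rows are grouped by subfamily and ordered by the THZ1 change. HNRNPDL is the darkest blue on both THZ1 arrays (-1.20 on average), and the SNRP genes are mostly pale red with THZ1 and blue with siMITF. With quantile normalization the SNRP median with THZ1 is -0.08 in place of 0.16.

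SR protein genes leaned to lower levels with THZ1. Of 11 tested SRSF genes, 6 fell (SRSF1, SRSF3, SRSF4, SRSF6, SRSF7 and SRSF8), with a subfamily median of -0.29 (log2, relative to the median gene). The 6 are 54.5%, where 21.1% of all tested genes were lower and 17.7% higher. None of the 11 was called higher (0 by limma, 2 at an unadjusted p under 0.05). With quantile normalization 8 were lower, SRSF2 and SRSF5 being added, and 0 higher, with a median of -0.28. Over all genes 21.5% were lower and 14.1% higher there. SRSF genes thus kept their direction under both scalings, unlike SNRP genes (below 0 in the median with quantile normalization).

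SRSF3 encodes the smallest SR protein, which also takes part in mRNA export. Its brightest probe set gave signals of 3413 and 4060 with DMSO, 1766 and 2196 with THZ1, 2636 and 3060 with siCtrl, and 1598 and 1274 with siMITF. Both treated groups lay below both of their controls without overlap. After centring, SRSF3 was 1.64-fold lower with THZ1 (-0.71 ± 0.07 SE, adjusted p = 5.7e-05, limma) and 1.28-fold lower with siMITF (-0.35 ± 0.07, adjusted p = 0.00327).

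SRSF6 encodes another classical SR protein that binds exonic enhancers. It gave 927 and 1131 with DMSO, 484 and 773 with THZ1, 598 and 777 with siCtrl, and 340 and 258 with siMITF. Treated arrays were below the controls in both arms, and on the centred scale the fall was 1.44-fold in each (-0.53 ± 0.09 with THZ1, adjusted p = 0.00198, and -0.53 ± 0.09 with siMITF, adjusted p = 0.00171). With quantile normalization it was -0.56 with THZ1 and -0.27 with siMITF. SRSF1, the SR protein first known as ASF/SF2, gave 2099 and 2308 with DMSO, 1259 and 1765 with THZ1, 1547 and 1864 with siCtrl, and 1187 and 941 with siMITF. It was 1.28-fold lower with THZ1 (-0.36 ± 0.08, adjusted p = 0.00592) and changed by -0.04 ± 0.08 with siMITF (adjusted p = 0.682). Without DMSO replicate 1 the THZ1 change of SRSF1 was -0.27 (adjusted p = 0.055).

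SRSF8, a paralogue of SRSF2, gave 116 and 155 with DMSO, 80.1 and 95.7 with THZ1, 93.5 and 107 with siCtrl, and 79.0 and 64.9 with siMITF. These are dim signals, lower on the treated arrays of both arms, and the relative change was -0.34 ± 0.08 with THZ1 (adjusted p = 0.00968) and 0.23 ± 0.08 with siMITF (adjusted p = 0.0478). The THZ1 call was lost without DMSO replicate 2 (adjusted p = 0.0575) or THZ1 replicate 2 (adjusted p = 0.0691). The siMITF call was lost without any 1 of the 4 siRNA arrays (changes of 0.19 to 0.26, adjusted p = 0.0729 to 0.205). It also went with a replicate block (adjusted p = 0.0706), with each gene's own variance (adjusted p = 0.1003) and with no filter on low signals (change 0.0435, adjusted p = 0.778).

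The hnRNP genes moved both ways with THZ1: 4 of 21 fell (HNRNPDL, HNRNPD, HNRNPF and HNRNPLL) and 5 rose (HNRNPA2B1, HNRNPA3, HNRNPC, HNRNPK and HNRNPR), with a median of 0.03. These are 19.0% lower and 23.8% higher, near the 21.1% and 17.7% of all genes. With quantile normalization 5 fell and 1 rose, with a median of -0.08. HNRNPDL encodes a paralogue of HNRNPD, and both bind AU-rich RNA. HNRNPDL gave 1062 and 1286 with DMSO, 353 and 533 with THZ1, 1011 and 1260 with siCtrl, and 519 and 379 with siMITF. Both THZ1 arrays lay far below both DMSO arrays, and treated and control arrays overlapped in neither arm. On the centred scale HNRNPDL fell 2.29-fold with THZ1 (-1.20 ± 0.09 SE, adjusted p = 9.8e-06, limma) and 1.61-fold with siMITF (-0.68 ± 0.09, adjusted p = 0.000238), and no other tested member changed as far as its THZ1 fall.

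HNRNPD, known as AUF1 for its part in the decay of AU-rich mRNAs, gave 2152 and 2351 with DMSO, 1091 and 1653 with THZ1, 1683 and 2056 with siCtrl, and 1014 and 827 with siMITF. All treated arrays lay below their controls. The change was -0.54 ± 0.09 with THZ1 (adjusted p = 0.00122) and -0.38 ± 0.09 with siMITF (adjusted p = 0.00681). HNRNPF, which binds runs of G, gave 2038 and 2523 with DMSO, 1333 and 1913 with THZ1, 1987 and 2329 with siCtrl, and 992 and 731 with siMITF. Its THZ1 change was -0.30 ± 0.08 (adjusted p = 0.0135), and the call was lost without DMSO replicate 1, DMSO replicate 2 or THZ1 replicate 1 (changes of -0.30, -0.30 and -0.24, adjusted p = 0.058, 0.0574 and 0.0782).

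HNRNPA3, a member of the A/B group, had the largest rise with THZ1. Its brightest probe set gave 366 and 404 with DMSO, 463 and 667 with THZ1, 381 and 455 with siCtrl, and 328 and 195 with siMITF. THZ1 arrays were above both DMSO arrays in signal, and the change was 0.71 ± 0.12 (adjusted p = 0.00175), with -0.05 ± 0.12 for siMITF. Only this probe set of the 4 for HNRNPA3 rose, since the others changed by -0.04, 0.03 and -0.04 with THZ1. A further pair of probe sets shared with the pseudogene HNRNPA3P1 differed by -0.17 and -0.16.

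HNRNPK, a poly(C)-binding protein, gave 2733 and 3468 with DMSO and 2718 and 4436 with THZ1, so the signals overlapped while the centred values did not. Its relative change of 0.37 ± 0.10 (adjusted p = 0.0128) was lost without DMSO replicate 1 (adjusted p = 0.0618) or THZ1 replicate 2 (change 0.22, adjusted p = 0.0872). The smaller rises of HNRNPA2B1 (0.28), HNRNPR (0.27) and HNRNPC (0.21) had adjusted p of 0.0275, 0.02 and 0.0395. Each was lost when single drug-arm arrays were left out: HNRNPA2B1 without DMSO replicate 1, DMSO replicate 2 or THZ1 replicate 1 (adjusted p = 0.0881, 0.0892 and 0.146), and HNRNPR without DMSO replicate 2, THZ1 replicate 1 or THZ1 replicate 2 (adjusted p = 0.142, 0.082 and 0.05004). HNRNPC, which binds U tracts, was lost without any 1 of the 4 (adjusted p = 0.103 to 0.135).

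Genes of the snRNP core and U2 particle stood at or a little above the median gene with THZ1. Of 11 tested SNRP genes, 4 rose (SNRPB2, SNRPC, SNRPD2 and SNRPE) and SNRPA1 fell, with a median of 0.16, but with quantile normalization 1 rose, 2 fell and the median was -0.08. The centred shares are 36.4% higher and 9.09% lower, beside 17.7% and 21.1% of all genes. At a signal of 515 or more, where most tested SNRP genes lay, 40.5% of all genes were higher and 12.1% lower. The SNRP shares are thus close to those of other bright genes. SNRPD2, of the Sm ring, gave 3779 and 4857 with DMSO, 4125 and 5258 with THZ1, 2995 and 3503 with siCtrl, and 2280 and 1886 with siMITF. The deposited signals overlapped between DMSO and THZ1. The relative change was 0.32 ± 0.07 with THZ1 (adjusted p = 0.00533) and -0.01 ± 0.07 with siMITF.

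SNRPC, of the U1 particle, changed by 0.29 with THZ1 (adjusted p = 0.00962) and by 0.24 without DMSO replicate 2 (adjusted p = 0.069). SNRPA1, the U2-A′ protein, gave 850 and 991 with DMSO, 562 and 613 with THZ1, 750 and 913 with siCtrl, and 436 and 322 with siMITF. It fell in both arms (-0.43 ± 0.10 with THZ1, adjusted p = 0.00718, and -0.48 ± 0.10 with siMITF, adjusted p = 0.00364). The THZ1 change of SNRPA1 was -0.29 without THZ1 replicate 2 (adjusted p = 0.0501). At the brightest probe set not named _x_at or _s_at, designs that can read related sequences, it was 0.02 with THZ1 and 0.11 with siMITF.

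Of 9 SF3 genes, SF3B6 rose with THZ1 and 0 fell by limma (0 at an unadjusted p under 0.05), with a median of 0.05, and with quantile normalization 0 were called either way. On the centred scale 17.7% of all genes were higher and 21.1% lower. SF3B6 encodes the small subunit that touches the branch-site adenosine. It gave 2390 and 3024 with DMSO, 2647 and 3709 with THZ1, 2041 and 2406 with siCtrl, and 1742 and 1237 with siMITF. Signals overlapped in the drug arm, and the relative change was 0.42 ± 0.08 with THZ1 (adjusted p = 0.0036) and 0.04 ± 0.08 with siMITF. With quantile normalization the THZ1 change was 0.20 (adjusted p = 0.0681). SF3B1, the largest SF3B subunit and a gene recurrently mutated in cancer, gave 1310 and 1596 with DMSO, 1117 and 1494 with THZ1, 1042 and 1215 with siCtrl, and 865 and 621 with siMITF. Its relative change was 0.04 ± 0.08 and 0.02 ± 0.08, and neither passed the threshold (adjusted p = 0.726 and 0.82). The siMITF change of SF3B1 had no settled direction, since it was called higher with quantile normalization (0.29, adjusted p = 0.00965) and lower with the mean of its probe sets (-0.21, adjusted p = 0.0198).

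U2AF1, which reads the AG at the 3′ splice site, gave 2613 and 3171 with DMSO, 1786 and 2469 with THZ1, 2168 and 2560 with siCtrl, and 1520 and 1158 with siMITF. It changed by -0.25 ± 0.07 with THZ1 (adjusted p = 0.0199) and by -0.19 ± 0.07 with siMITF (adjusted p = 0.0572). The THZ1 call was lost without DMSO replicate 1, DMSO replicate 2 or THZ1 replicate 1 (adjusted p = 0.0904, 0.0649 and 0.0877), while with quantile normalization the change was -0.48 (adjusted p = 0.000461). U2AF2, its partner on the polypyrimidine tract, gave 913 and 1635 with DMSO, 1091 and 1774 with THZ1, 1139 and 1225 with siCtrl, and 646 and 483 with siMITF. The DMSO arrays were far apart, and the changes were 0.38 ± 0.16 with THZ1 (adjusted p = 0.0767) and -0.43 ± 0.16 with siMITF (adjusted p = 0.0493). Without any 1 of the 4 siRNA arrays, the siMITF change of U2AF2 was -0.50 to -0.36 (adjusted p = 0.082 to 0.212).

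Of 11 PRPF genes, PRPF38B, PRPF3 and PRPF4 fell with THZ1 and 0 rose (0 at an unadjusted p under 0.05), under median centring and under quantile normalization alike. Their 27.3% lower is near the 21.1% of all genes on the centred scale, where 17.7% of all genes were higher. PRPF38B, a paralogue of the spliceosomal protein PRPF38A, gave 149 and 181 with DMSO, 70.2 and 85.6 with THZ1, 128 and 160 with siCtrl, and 96.2 and 66.6 with siMITF. The THZ1 arrays held less than either DMSO array, and the relative fall was 1.68-fold (-0.74 ± 0.09, adjusted p = 0.000137). With siMITF the per-cell fall came with a relative change of -0.10 ± 0.09 (adjusted p = 0.383). PRPF3 and PRPF4 sit together on U4/U6, and both changed by -0.38 ± 0.08 with THZ1 (adjusted p = 0.00371 and 0.00423). PRPF4 gave 889 and 1046 with DMSO, 523 and 782 with THZ1, 528 and 640 with siCtrl, and 311 and 244 with siMITF. PRPF3 gave 211 and 237 with DMSO, 121 and 171 with THZ1, 174 and 215 with siCtrl, and 113 and 85.3 with siMITF. Treated and control arrays of these 2 genes did not overlap in either arm.

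**Figure D2:**
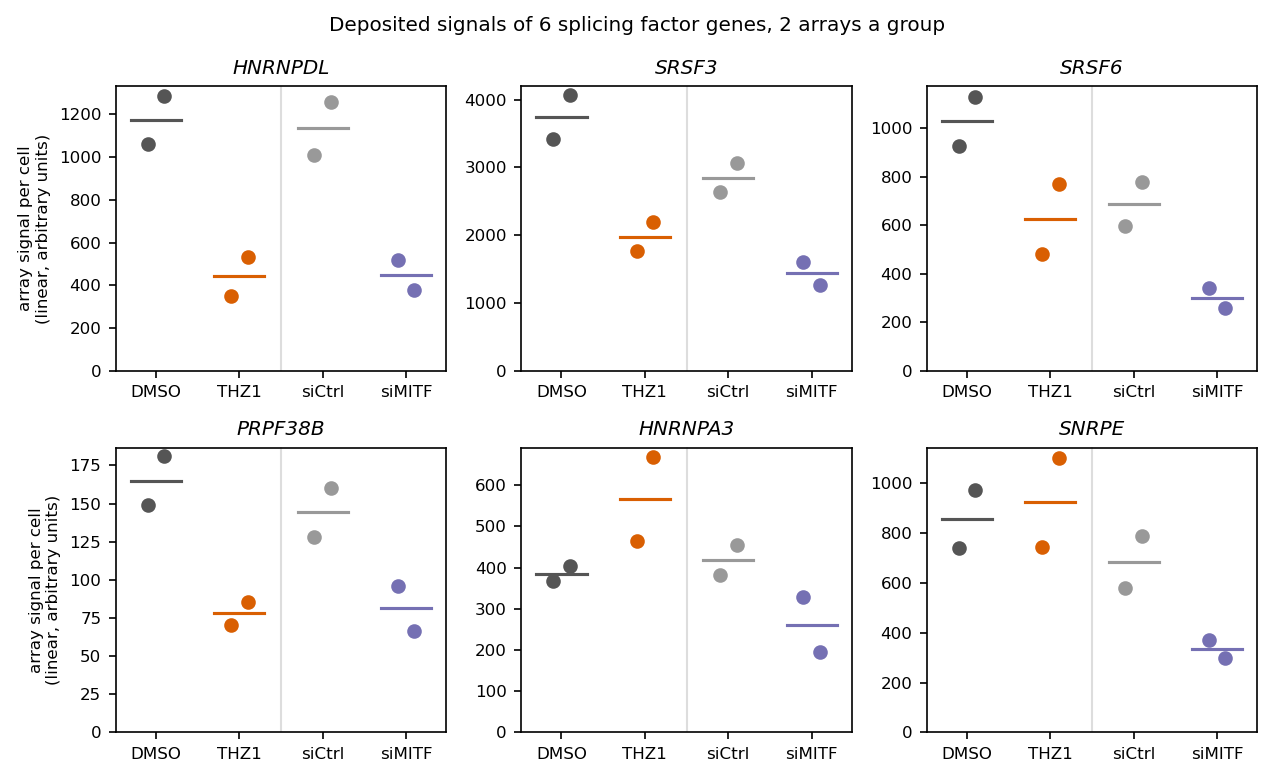
Deposited signals (linear axis from 0, normalized to cell number) of 6 splicing factor genes, with 1 point per array and a bar at the mean of 2 arrays. HNRNPDL, SRSF3, SRSF6 and PRPF38B are lower on both treated arrays of each arm. HNRNPA3 (463 and 667 with THZ1) is above its DMSO arrays, and SNRPE overlaps between DMSO and THZ1 (741 and 972 against 743 and 1103) and is lower with siMITF.

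siMITF lowered the per-cell signal of nearly all splicing factor genes, and lowered 32 of the 66 further than the median gene. Per cell, 59 of 66 members fell, where 63.4% of all genes were called lower, with a member median of -0.81 (log2) beside -0.63 for all genes. On this scale 0 members were called higher by limma (0 at an unadjusted p under 0.05), where 0.326% of all genes were. Relative to the median gene, 32 members fell and 3 rose (PRPF8, SRSF8 and U2AF1L4), beside 24.7% and 19.5% of all genes, with a member median of -0.18. With quantile normalization 17 fell and 11 rose (1876 and 2677 of all genes), and all 17 were among the 32. The members' share of falls was 48.5% on the centred scale, and with quantile normalization the 17 stood beside 15.7% of all genes.

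Fewer members were called lower per cell without siCtrl replicate 2 or without siMITF replicate 2, and the share over all genes also dropped. With each gene's own variance 0 members were called per cell (44 lower at an unadjusted p under 0.05), and the lowest adjusted p over all tested genes was 0.0893. After centring, fewer members were lower with any 1 siRNA-arm array left out, and the fewest without siMITF replicate 2. Fewer were higher without siCtrl replicate 2, siMITF replicate 1 or siMITF replicate 2. The share of all genes called lower dropped without siMITF replicate 2, and the share called higher dropped in each setting with fewer members higher.

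The members had bright probe sets, and the relative change of a gene moved with its brightness in both arms. The median member signal was 735, against 166 for all tested genes, and 44 of the 66 lay in the top bin when tested genes were cut into 5 equal bins by brightness (signal of 515 or more). In that bin, all genes had a median relative change of -0.21 with siMITF, with 48.7% lower and 8.62% higher. The 44 members there had a median of -0.27, with 24 lower (54.5%) and 1 higher (2.27%), close to other bright genes. With THZ1, all genes of that bin had a median of 0.17, with 12.1% lower and 40.5% higher. The 44 members there had a median of 0.05, with 11 lower (25%) and 9 higher (20.5%). The part of brightness in these counts was not tested.

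**Figure D3:**
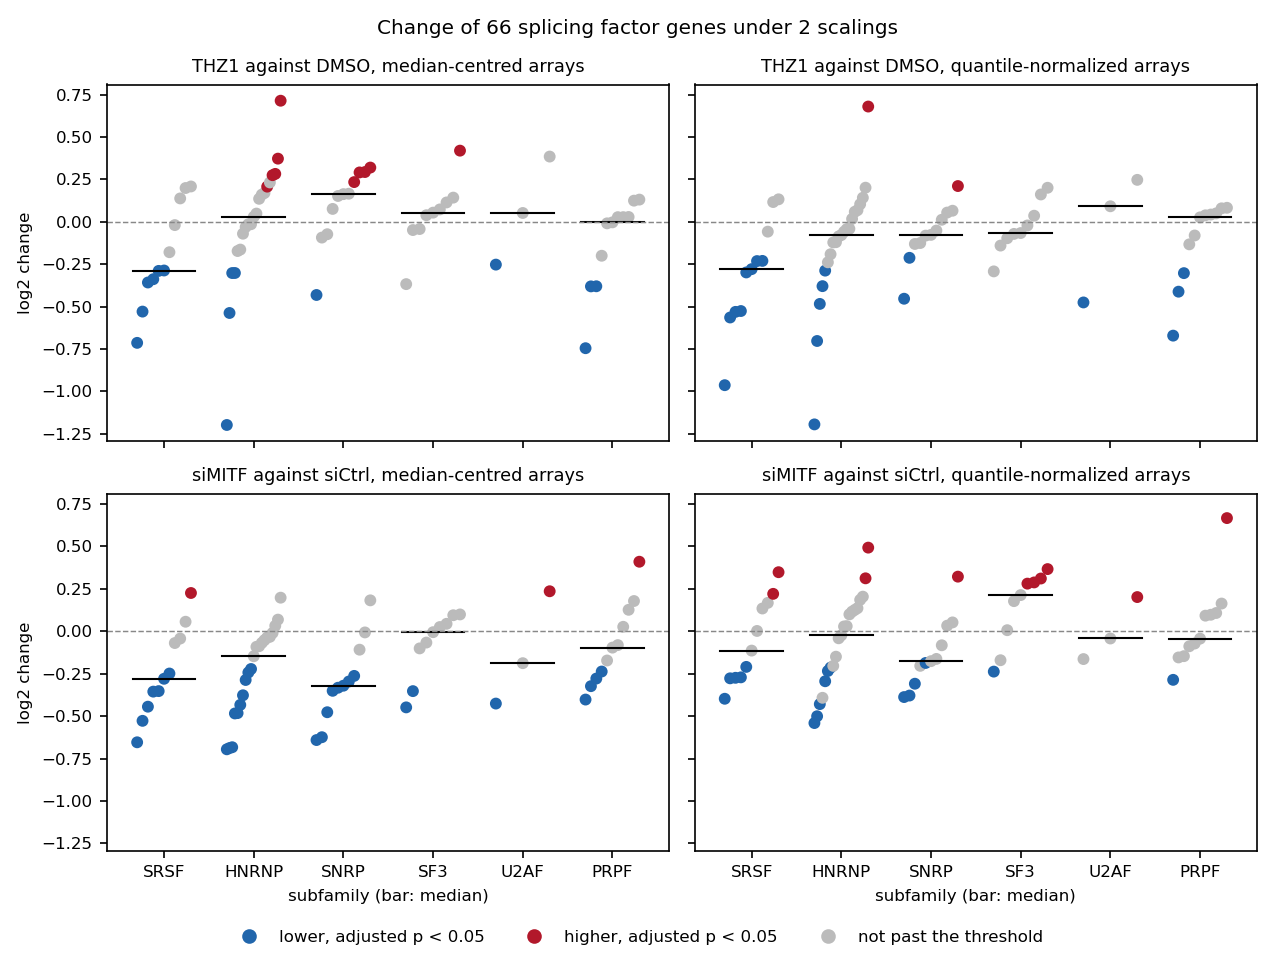
Log2 change of each of the 66 tested genes (1 point a gene, bar at the subfamily median) for THZ1 against DMSO and siMITF against siCtrl, after centring each array on its median gene (left) or quantile normalization (right). Blue and red points were past the threshold (0.05 after adjustment). The SRSF median with THZ1 is -0.29 on the left and -0.28 on the right, while the SNRP median goes from 0.16 to -0.08 and the SF3 median with siMITF from -0.01 to 0.21.

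Among SRSF genes, 7 of 11 fell with siMITF and SRSF8 rose (median -0.28), and with quantile normalization 5 fell and 2 rose (median -0.11). The centred shares are 63.6% lower and 9.09% higher, beside 24.7% and 19.5% of all genes. In the top brightness bin, where most tested SRSF genes lay, 48.7% of all genes were lower and 8.62% higher. SRSF2, a gene recurrently mutated in cancer that binds exonic enhancers, gave 1004 and 1283 with siCtrl, 539 and 385 with siMITF, 1224 and 1697 with DMSO, and 960 and 1272 with THZ1. siMITF arrays held less than either siCtrl array, while DMSO and THZ1 overlapped. SRSF2 fell 1.57-fold with siMITF (-0.65 ± 0.09, adjusted p = 0.000388, limma) and changed by -0.18 ± 0.09 with THZ1 (adjusted p = 0.14). SRSF5 gave 1845 and 2330 with siCtrl, 1119 and 849 with siMITF, 2133 and 2740 with DMSO, and 1812 and 2374 with THZ1. It changed by -0.44 ± 0.07 with siMITF (adjusted p = 0.00122) and by -0.02 ± 0.07 with THZ1. SRSF9, whose signals were 3181 and 3782 with siCtrl and 1922 and 1576 with siMITF, changed by -0.36 ± 0.07 (adjusted p = 0.00346).

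Among HNRNP genes, 10 of 21 fell with siMITF and 0 rose by limma (1 at an unadjusted p under 0.05), with a median of -0.15, and with quantile normalization 6 fell and 2 rose. The centred falls are 47.6%, where 24.7% of all genes were lower and 19.5% higher. In the top brightness bin, where most tested HNRNP genes lay, 48.7% of all genes were lower and 8.62% higher. The HNRNP share is thus close to that of other bright genes. HNRNPL, which binds CA-rich RNA, gave 315 and 380 with siCtrl, 146 and 112 with siMITF, 349 and 496 with DMSO, and 333 and 382 with THZ1. The siMITF arrays were below both siCtrl arrays, and the drug arrays overlapped. Its fall of 1.62-fold (-0.70 ± 0.09, adjusted p = 0.000332) was the largest relative fall among the tested members with siMITF, with -0.01 ± 0.09 for THZ1. That fall rests on 1 of the 2 probe sets of HNRNPL alone: the other, at a mean signal of 241 against 287, changed by 0.12 with siMITF (adjusted p = 0.256 over probe sets). A probe set shared by ECH1 and HNRNPL differed by 0.08 with siMITF. HNRNPF fell 1.61-fold with siMITF (-0.69 ± 0.08, adjusted p = 0.000147). HNRNPH1, of the same G-run binding group, gave 491 and 658 with siCtrl and 285 and 226 with siMITF, and changed by -0.48 ± 0.09 (adjusted p = 0.00196).

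Among the subfamilies, SNRP genes had the largest median difference between the arms on the centred scale (0.43). With siMITF 8 of 11 SNRP genes fell (72.7%) and 0 rose by limma (0 at an unadjusted p under 0.05), with a median of -0.32. Over all genes 24.7% were lower and 19.5% higher. All genes of the top brightness bin had medians of 0.17 with THZ1 and -0.21 with siMITF, beside 0.16 and -0.32 for SNRP genes. The part of brightness in this contrast was not tested. With quantile normalization 4 SNRP genes fell with siMITF, 1 rose and the median was -0.18. SNRPD1, of the Sm ring, gave 737 and 1040 with siCtrl, 385 and 324 with siMITF, 798 and 929 with DMSO, and 609 and 828 with THZ1. SNRPA, the U1-A protein, gave 511 and 662 with siCtrl, 277 and 198 with siMITF, 590 and 742 with DMSO, and 452 and 637 with THZ1. For both genes the siMITF arrays lay below the siCtrl arrays and the drug arrays overlapped. SNRPD1 changed by -0.64 ± 0.09 and SNRPA by -0.62 ± 0.08 with siMITF (adjusted p = 0.000379 and 0.000323). SNRPB, also of the Sm ring, gave 4021 and 4787 with siCtrl and 2441 and 2089 with siMITF and changed by -0.32 ± 0.07 (adjusted p = 0.00623), with 0.08 ± 0.07 for THZ1.

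Of the remaining subfamilies, 2 of 9 SF3 genes (SF3A3 and SF3B4) and 4 of 11 PRPF genes (PRPF3, PRPF4, PRPF18 and PRPF31) fell with siMITF on the centred scale. These are 22.2% and 36.4%, beside 24.7% of all genes. With quantile normalization 1 SF3 gene was lower and 4 were higher, and 1 PRPF gene was lower and 1 higher. PRPF8, the large scaffold at the catalytic centre of the spliceosome, gave 931 and 1124 with siCtrl, 988 and 774 with siMITF, 911 and 1244 with DMSO, and 889 and 1157 with THZ1. Its deposited signals overlapped in both arms, and relative to the median gene it rose by 0.41 ± 0.08 with siMITF (adjusted p = 0.00197) and by 0.67 with quantile normalization. U2AF1L4, a shorter paralogue of U2AF1, rose by 0.24 (adjusted p = 0.0241), a call lost without siCtrl replicate 2, siMITF replicate 1 or siMITF replicate 2 (adjusted p = 0.157, 0.0921 and 0.095). PRPF3, at -0.24, was lost without any 1 of the 4 siRNA arrays (adjusted p = 0.0563 to 0.154), and with a replicate block (adjusted p = 0.0502).

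Over all 206 member probe sets above the cut, 48 were lower and 29 higher with THZ1, where 16.9% and 18.4% of 27167 probe sets were. With siMITF 106 were lower and 12 higher, where 25.0% and 18.5% were. Of 49 genes with 2 or more such probe sets, 25 had changes of both signs with THZ1 and 24 with siMITF. Calls in both directions were made for HNRNPD, SRSF10 and SRSF11 with THZ1, and for HNRNPD, HNRNPDL, HNRNPU and SRSF11 with siMITF. The matching shares over all genes were not computed, so mixed signs and opposite calls cannot be read as particular to the members.

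All 6 probe sets of SRSF3 above the cut fell with THZ1, by -1.11 to -0.41 (log2, relative to the median gene). The SRSF3 set with the largest fall, at a mean signal of 2070, changed by -0.02 with siMITF, while 4 of the 6 were lower with siMITF. HNRNPD fell at 6 of 7 sets in each arm, by -0.73 to -0.36 with THZ1, and its dimmest set above the cut, at a mean signal of 57.6, rose by 0.77 with THZ1 and by 0.42 with siMITF. Of 5 HNRNPDL sets, the 3 at mean signals of 712, 660 and 263 fell in both arms, and the 1 at 391 changed by 0.17 with THZ1 (adjusted p = 0.21) and rose by 0.28 with siMITF (adjusted p = 0.0401). PRPF38B fell at 2 of 3 sets with THZ1 (-0.74 and -0.52), and the third changed by 0.05.

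SRSF1 fell at 5 of 6 sets with THZ1, by -0.91, -0.74 and -0.47 at the 3 dimmest sets (mean signals of 124, 96.9 and 75.5) and by -0.36 at the brightest. Probe sets of HNRNPF fell at 5 of 7 with THZ1 and 7 of 7 with siMITF, and SNRPB fell at 7 of 7 with siMITF. SRSF5 had 8 of 11 sets lower with siMITF and no set past the threshold with THZ1 (changes of -0.12 to 0.20, lowest adjusted p 0.258). With quantile normalization the brightest SRSF5 set was lower in both arms (-0.23 and -0.28, adjusted p = 0.0218 and 0.00912). HNRNPK rose at 5 of 6 sets with THZ1 and fell at 5 of 6 with siMITF, where its brightest set changed by -0.01. With quantile normalization that brightest HNRNPK set changed by 0.14 with each treatment (adjusted p = 0.312 and 0.321). SNRPF, of the Sm ring, rose at 3 of 4 sets with THZ1 and fell at 4 of 4 with siMITF. SRSF8 had 1 probe set, whose siMITF change missed the threshold when p was adjusted over probe sets (adjusted p = 0.053).

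SRSF10 and SRSF11 each split with THZ1. SRSF10, which represses splicing when dephosphorylated, was called lower at a set of mean signal 279 (-0.26) and higher at one of 94.2 (0.33). SRSF11 was lower at 126 (-0.30) and higher at 270 (0.23) and at 50.3 (0.87). HNRNPU, a nuclear scaffold protein, was lower with siMITF at 2 sets (-0.24 and -0.33) and higher at 1 of mean signal 48.5 (0.26).

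**Figure D4:**
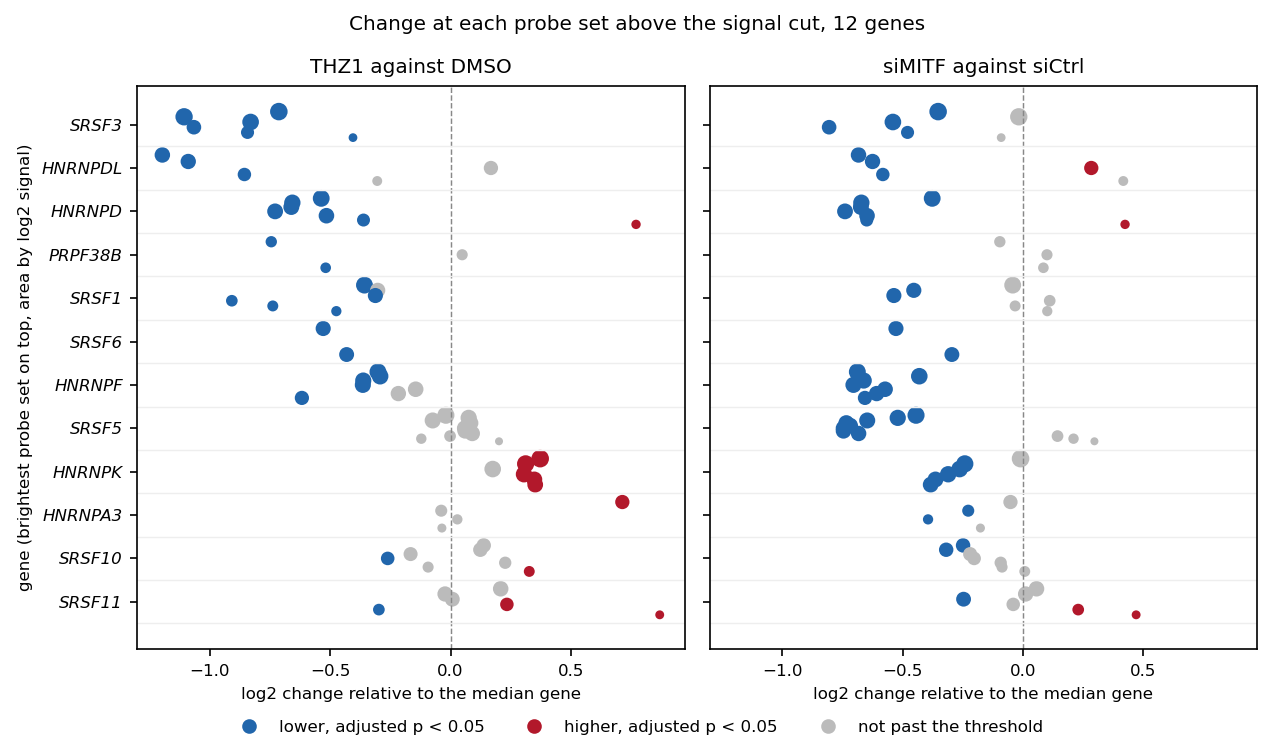
Log2 change relative to the median gene at every probe set above the cut for 12 genes (1 point a probe set, area growing with log2 mean signal, brightest on top), for THZ1 (left) and siMITF (right). All 6 SRSF3 sets lie left of 0 with THZ1, the SRSF5 sets lie between -0.12 and 0.20 with THZ1, none past the threshold, and 8 of 11 are lower with siMITF, and 1 HNRNPA3 set stands apart at 0.71.

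The THZ1 and siMITF changes use different arrays, so their difference was tested directly in 1 model. Relative to the median gene, the THZ1 change was below the siMITF change for 5 members and above it for 30, where 20.2% and 21.4% of all genes were, with a member median of 0.16. With quantile normalization this turned to 20 below and 5 above (2936 and 1658 of all genes). All 5 below on the centred scale were kept (HNRNPDL, PRPF38B, SRSF1, SRSF3 and SRSF8), and 5 of the 30 above were (HNRNPL, PRPF18, SF3B4, SNRPA and SNRPE). The balance of the 2 arms over all members thus has no direction that holds under both scalings.

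PRPF38B had the largest difference below, -0.65 ± 0.12 (95% interval -0.92 to -0.38, adjusted p = 0.00213, limma). SRSF8 followed at -0.56 ± 0.12 (adjusted p = 0.00361), HNRNPDL at -0.51 ± 0.12 (adjusted p = 0.00723), SRSF3 at -0.36 ± 0.10 (adjusted p = 0.0162) and SRSF1 at -0.31 ± 0.11 (adjusted p = 0.0445). The call of SRSF3 was lost without DMSO replicate 1, siCtrl replicate 2 or siMITF replicate 1 (adjusted p = 0.0559, 0.0504 and 0.0542). That of SRSF1 was lost without 7 of the 8 arrays, DMSO replicate 2 being the exception (changes of -0.36 to -0.23, adjusted p = 0.0507 to 0.164). At the brightest SRSF1 probe set not named _x_at or _s_at the difference was 0.15 (adjusted p = 0.501), and its siMITF change was -0.45 (adjusted p = 0.0111 over probe sets). The difference for SRSF6 had a 95% interval of -0.30 to 0.30 on the centred scale, and with quantile normalization it was -0.29 and passed the threshold (adjusted p = 0.0473).

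In the other direction, U2AF2 differed by 0.81 ± 0.22 (adjusted p = 0.0147), HNRNPA3 by 0.77 ± 0.18 (adjusted p = 0.00635), HNRNPL by 0.68 ± 0.13 (adjusted p = 0.00253), SNRPE by 0.64 ± 0.12 (adjusted p = 0.00257) and SNRPD1 by 0.57 ± 0.12 (adjusted p = 0.00489). The U2AF2 call was lost without siMITF replicate 2 or THZ1 replicate 2 (differences of 0.74 and 0.66, adjusted p = 0.0585 and 0.0589). Of the 11 SNRP genes, 9 differed in this direction and 0 in the other by limma (0 at an unadjusted p under 0.05), and with quantile normalization 2 did and 1 was below. The 9 are 81.8%, beside 21.4% of all genes on the centred scale.

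SNRPE, of the Sm ring, gave 741 and 972 with DMSO, 743 and 1103 with THZ1, 579 and 788 with siCtrl, and 372 and 299 with siMITF. Its arrays overlapped in the drug arm and not in the siRNA arm. The relative change was 0.29 ± 0.09 with THZ1 (adjusted p = 0.0253) and -0.35 ± 0.09 with siMITF (adjusted p = 0.00944). The THZ1 call of SNRPE was lost without DMSO replicate 1, DMSO replicate 2 or THZ1 replicate 2 (adjusted p = 0.123, 0.0508 and 0.151). Its siMITF call was lost without siCtrl replicate 2 or siMITF replicate 2 (adjusted p = 0.0809 and 0.0559). That change was -0.08 with quantile normalization (adjusted p = 0.366) and 0.03 with the mean of its probe sets (adjusted p = 0.763). With each gene's own variance neither the THZ1 nor the siMITF call of SNRPE was kept (adjusted p = 0.0891 and 0.0553).

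With values taken relative to the median gene, 9 members fell with both treatments, which is 60% of the 15 lower with THZ1 and 28.1% of the 32 lower with siMITF. They were HNRNPD, HNRNPDL, HNRNPF, PRPF3, PRPF4, SNRPA1, SRSF3, SRSF6 and SRSF7. Over all tested genes, 745 were lower with both, which is 29.6% of those lower with THZ1 and 25.3% of those lower with siMITF. With quantile normalization 4 of the 9 were lower with both (HNRNPDL, HNRNPF, SRSF3 and SRSF6), since HNRNPD, PRPF3, PRPF4, SNRPA1 and SRSF7 lost the siMITF call. HNRNPAB, SNRPB, SRSF2 and SRSF5 were added there, and these 8 are 42.1% and 47.1% of the members lower in each arm, beside 20.6% and 28.3% over all genes. On the centred scale SRSF8 was called lower with THZ1 and higher with siMITF, and SNRPE the other way round. No member rose with both (0 of 10 and of 3, counts from the separate limma calls).

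**Figure D5:**
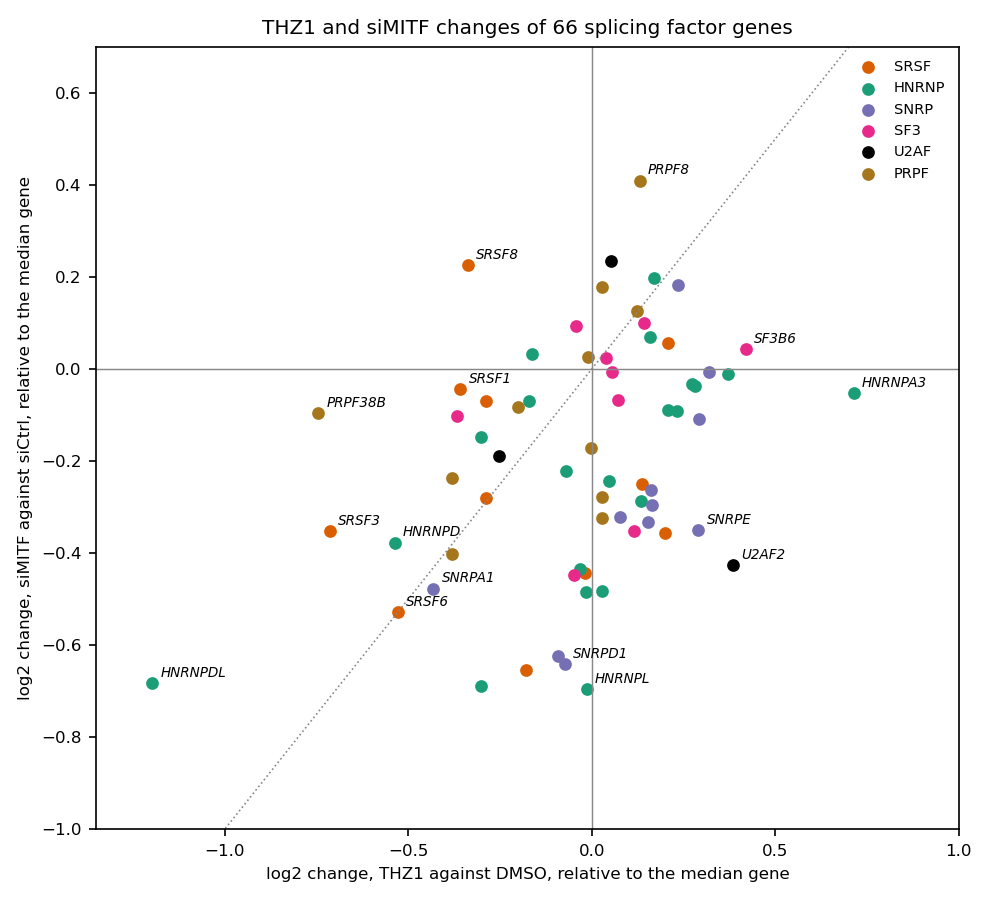
Each point is 1 of the 66 tested splicing factor genes, with its log2 change for THZ1 against DMSO on the horizontal axis and for siMITF against siCtrl on the vertical axis, both relative to the median gene, and coloured by subfamily. The dotted line marks equal changes. HNRNPDL lies far to the lower left (-1.20 and -0.68), PRPF38B lies left near 0 on the vertical axis (-0.74 and -0.10), and most SNRP genes lie below the line, a position that turned for the members as a whole with quantile normalization.

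Other genes of the splicing pathway were taken from 6 role lists of 107 genes, of which 103 were on the array and 101 tested. With THZ1 18 fell and 16 rose, and with siMITF 42 fell and 8 rose, relative to the median gene. These are 17.8% and 15.8% with THZ1, below the 21.1% and 17.7% of all genes, and 41.6% and 7.92% with siMITF, beside 24.7% and 19.5%. Their medians were 0.02 and -0.19, beside 0.04 and 0.0014 for all tested genes. With quantile normalization the counts were 26 and 13, and 20 and 22. Of 22 SNRNP and LSM genes, 5 fell (22.7%) and 7 rose (31.8%) with THZ1, and 15 fell (68.2%) with siMITF. LSM8, which joins the ring on U6, fell by 0.64 with THZ1 (adjusted p = 9.76e-05), while LSM5 and LSM3 of the same ring rose by 0.44 and 0.43 (adjusted p = 0.00135 and 0.00216). With siMITF all 3 fell, LSM8 by 0.38, LSM5 by 0.42 and LSM3 by 0.39 (adjusted p = 0.00192, 0.00145 and 0.00308). SNRNP27, of the tri-snRNP, rose by 0.40 with THZ1 and fell by 0.48 with siMITF (adjusted p = 0.0034 and 0.00105).

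Shares in the lists below stand beside 21.1% lower and 17.7% higher over all genes with THZ1, and 24.7% and 19.5% with siMITF. Of 21 helicases and catalytic step factors, 1 fell with THZ1 (4.76%), DHX16 by 0.24 (adjusted p = 0.0292, limma). With siMITF 7 fell (33.3%) and 1 rose (4.76%). The falls included DDX46 by 0.76 and DHX15 by 0.50 (adjusted p = 0.000112 and 0.000514). Of 8 SR protein kinase and import genes, 1 rose with THZ1 (12.5%), CLK1, a kinase of SR proteins, by 0.41 (adjusted p = 0.0062). With siMITF 2 fell (25%), DYRK1A by 0.59 and CLK3 by 0.33 (adjusted p = 0.00039 and 0.00763). Of 18 SR-related and 3′ splice site factors, 5 fell (27.8%) and 3 rose (16.7%) with THZ1, and 6 fell (33.3%) and 1 rose (5.56%) with siMITF. With THZ1, RBM5 changed by -0.52, SON by -0.42 and TRA2B by 0.33 (adjusted p = 0.000526, 0.00508 and 0.00558). Of 7 genes on the exon junction complex list, 1 fell and 1 rose with THZ1 (14.3% each), and 3 fell (42.9%) and 1 rose (14.3%) with siMITF. The THZ1 fall was of UPF2, a decay factor outside the core complex (by 0.44, adjusted p = 0.00287, limma).

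Of 25 other splicing regulators, 6 fell (24%) and 4 rose (16%) with THZ1, near the 21.1% and 17.7% of all genes. TARDBP, the TDP-43 protein, fell by 0.82 (adjusted p = 4.63e-05, limma), a larger fall than any SRSF gene had at its brightest probe set. Another SRSF3 probe set changed by -1.11. QKI fell by 0.55 and PTBP3 by 0.41 (adjusted p = 0.000722 and 0.00288). With siMITF 9 fell (36%) and 5 rose (20%), beside 24.7% and 19.5% of all genes. The falls were led by ESRP1, an epithelial splicing regulator, by 1.27 (adjusted p = 2.98e-05), and RALY, an hnRNP relative, by 0.70 (adjusted p = 0.000364).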

How the data were processed

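RNA from 8 arrays in 4 groups of 2 was compared. The deposited values are MAS5 signals (intensity, linear), per the submitters' processing notes, and were normalized to cell number by the authors, per the labels' design text. How that was calculated, and the version of MAS5, are not given in the sources used here. The platform table gave 1 symbol to 45278 of 49495 probe sets, several to 1333 and none to 2682. Gene IDs of 45208 matched a RefSeq table (GRCh38.p14).

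Signals were analysed as log2(value + 16), so the changes of dim genes are understated. A gene was read by its brightest probe set with 1 symbol, and tested if its mean log2 signal reached the 40th percentile of such probe sets (39.2), which left 11947 of 18244 genes. Of the tested members, 18 were read by an _x_at and 22 by an _s_at probe set. The model was limma's (version 3.58.1, R 4.3.3), with a mean for each of the 4 groups and Benjamini-Hochberg adjustment over all tested genes (threshold 0.05). Probe sets were fitted and adjusted in the same way over all probe sets with 1 symbol above the cut. Relative values subtract each array's median deviation. The per-cell fit had an infinite prior degrees of freedom, so its p-values overstate the evidence, and the relative fit had 5.97 prior and 4 residual degrees of freedom. Standard errors (SE) and 95% intervals come from these fits. Precision is limited by having 2 arrays a group. The fit was tested on simulated data.

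The members and the lists of other splicing genes were chosen with earlier results of these data known. Named members were the 8 largest falls and rises in each comparison, where neither treated array lay within the control range, the 2 brightest of each subfamily, the 5 largest differences each way, genes with probe sets called both ways, and 4 factors known for mutation in cancer. SRSF5, and other members named in counts, were chosen after their values were seen. Of the other splicing genes, up to 3 per list and comparison with the lowest adjusted p could be named. Alternatives were another pseudocount, no filter, other probe set rules, each gene's own variance, only the arrays of a comparison, ERCC scaling, quantile normalization, a replicate block and leaving out each array.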

Additional observations from a re-analysis of the deposited data

Results flagged for a closer look

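The THZ1 and siMITF changes of SNRPE and SRSF8 were each called in opposite directions, and the difference itself passed the test. For SNRPE the difference (THZ1 change minus siMITF change) was 0.64 on the log2 scale relative to the median gene, and for SRSF8 it was -0.56. Both remained past the threshold with quantile normalization, at 0.29 (adjusted p = 0.0393, limma) for SNRPE and -0.50 (adjusted p = 0.00556) for SRSF8. The opposite calls of SNRPE did not hold under that scaling, since its siMITF change was then -0.08 (adjusted p = 0.366). With the mean of its probe sets, the siMITF change of SNRPE was 0.03 (adjusted p = 0.763) and the difference 0.20 (adjusted p = 0.11). For SRSF8, with no filter on low signals, the difference was -0.43 (adjusted p = 0.0597). With groups of 2 arrays, no array could be tested as an outlier.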

How the results depend on the processing

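Counts of called members are limited by 2 arrays a group and by the scaling. Percentages in brackets are the shares of all tested genes. Per cell, members lower with THZ1 numbered 3 with a pseudocount of 1 (9.70%). They numbered 2 of 50 with the brightest probe set not named _x_at or _s_at (8.98%) and 0 with each gene's own variance (0%). With only the 4 arrays of the comparison there were 3 (7.38%), and 3 after rescaling to ERCC probe sets (4.91%). Per cell with siMITF they numbered 0 with own variance (0%). Both per-cell counts also moved with 1 array left out. Relative to the median gene, members lower with THZ1 numbered 9 to 12 with 1 array left out. Members higher with THZ1 numbered 1 of 70 with no filter (2.61%) and 4 of 50 with probe sets not named _x_at or _s_at (16.05%). They numbered 5 with only 4 arrays (11.8%) and 2 with quantile normalization (14.1%). Fewer were higher with any 1 drug-arm array left out. The share of all genes also dropped without DMSO replicate 1, THZ1 replicate 1 or THZ1 replicate 2. With siMITF, lower calls numbered 17 with quantile normalization and 21 to 28 with 1 array left out, and higher calls 5 with a pseudocount of 1, 11 with quantile normalization and 1 to 3 with 1 array left out. For the difference between arms, members below numbered 3 with a pseudocount of 64 (16.6%), 2 of 70 with no filter (8.21%) and 20 with quantile normalization (24.6%). Members above numbered 19 of 50 with probe sets not named _x_at or _s_at (21.1%), 18 with own variance (16.5%) and 5 with quantile normalization (13.9%). With 1 array left out, no count of relative calls was larger than with all 8 arrays.

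These single-gene values (log2, relative to the median gene) changed sign, and the cause was not tested. With quantile normalization, the THZ1 change was -0.0436 for HNRNPC and -0.21 for SNRPB, the siMITF change 0.0018 for SRSF10, and the difference between arms -0.27 for PRPF4, -0.0474 for HNRNPR, -0.0789 for HNRNPU, -0.0198 for HNRNPC, -0.38 for SF3B5 and -0.38 for SF3B1. With the brightest probe set not named _x_at or _s_at, the THZ1 change was 0.0187 for SNRPA1, -0.0614 for HNRNPR and -0.0171 for HNRNPC, the siMITF change 0.11 for SNRPA1, and the difference 0.15 for SRSF1. With the mean of a gene's probe sets, the siMITF change was 0.0265 for SNRPE, -0.20 for HNRNPA1 and -0.21 for SF3B1. HNRNPL, SRSF2 and SRSF6 had only _x_at or _s_at probe sets, so the rule that leaves those out could not be run for them. Calls said below to hold under all alternatives were not put to that rule for these genes. The dimmer HNRNPL set changed by -0.01 with THZ1 and 0.12 with siMITF. Of the 38 members named by rule, 21 were called with THZ1, of which 10 kept the call without each array and 7 under all alternatives (HNRNPDL, PRPF38B, SRSF3, HNRNPD, SRSF6, PRPF3 and PRPF4). With siMITF these counts were 22, 15 and 9, and for the difference 24, 11 and 3 (PRPF38B, HNRNPL and SNRPA).

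The replicate numbers are shared by labels only, and same-numbered arrays deviated together with a correlation of 0.11 in the drug arm and -0.18 in the siRNA arm. With a replicate block, the relative counts of lower and higher members were 16 and 9 with THZ1, 30 and 2 with siMITF, and 4 and 26 for the difference, and those lower per cell 6 and 60. Over all genes the relative shares were 20.9% and 16.2%, 23.4% and 19.6%, and 20.1% and 20.6%, and those lower per cell 12.8% and 70.9%. With the siMITF numbers crossed, an alternative chosen after seeing the data, the relative counts were 32 and 2, and 66 were lower per cell.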
